A study of Saccharomyces cerevisiae with 8 samples.

Results

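Yeast makes several proteins of respiration and translation in an aerobic and a hypoxic form from separate genes. The 10 genes described here are 4 such pairs, with the hypoxic form named first, *COX5B*/*COX5A*, *CYC7*/*CYC1*, *ANB1*/*HYP2* and *AAC3*/*PET9*, and the regulators *ROX1* and *HAP1*. They were named in advance by current gene symbol, with earlier results of the same comparison known, so their differences between groups are given as a description without a test. All 10 had a probe set to which the platform annotation assigns that gene alone, out of 5656 genes with such a probe set. They had 12 probe sets in all, 1 each for 9 genes and 3 for *HAP1*.

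Transcripts were measured on 8 Affymetrix yeast arrays of 1 *Saccharomyces cerevisiae* strain, which is given by a number alone and without a genotype. Gentamicin arrays 5 to 8 (n = 4) came from cells acclimated to gentamicin, an aminoglycoside antibiotic that binds ribosomal RNA, and kept in it throughout. The dose was 500 per ml, in µg by the sample labels and in mg by the series' design text. Control arrays 1 to 4 (n = 4) came from the same strain without the drug, and both groups were grown in YPD, a rich glucose medium, to mid-log phase. The labels do not say whether the samples of a group were separate cultures, so the spread between arrays may be technical, and oxygen in the cultures is not given.

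When oxygen is plentiful, budding yeast makes heme, and the heme-responsive activator Hap1 raises transcription of aerobic genes and of *ROX1*. Rox1 is a DNA-binding protein that, with the corepressor Tup1-Cyc8 (Cyc8 is also called Ssn6), keeps hypoxic genes low. When oxygen and heme are scarce, Rox1 is lost and hypoxic forms replace or join the aerobic forms. Laboratory strains related to the reference strain S288C carry a Ty1 transposon in *HAP1* that weakens its product, and whether the strain used here has it is not given.

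Signals are MAS5 values in arbitrary units on a linear scale, and their trimmed mean was alike on all arrays. The median signal of an array was lower with gentamicin (330 ± 7.06, SD, n = 4) than in controls (389 ± 7.16), and the median log2 difference over the 4524 genes tested was -0.12. A log2 difference is gentamicin minus control throughout. A probe set measures a share of the RNA extracted, so fewer cells with a transcript and less of it per cell cannot be told apart. Of the tested genes, 46.8% were called different (limma, adjusted p under 0.05), 15.5% higher and 31.3% lower. These are 702 and 1414 genes, which became 1079 and 799 when array medians were aligned. The groups did not overlap for 44.8% of genes, with 15.2% wholly higher and 29.6% wholly lower. Among the 10 genes, 9 passed the filter on low signals, of which 3 were called higher and 3 lower. The same 6 were the ones whose groups did not overlap, and since the genes were chosen on this contrast nothing is read from these counts.

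The hypoxic forms *COX5B*, *CYC7* and *ANB1*, 3 of the 4, were 1.82 to 2.26 times higher with gentamicin. Of their aerobic partners, *CYC1* was 1.94-fold lower and *COX5A* 1.24-fold lower, while *HYP2* had the same mean signal in both groups within a wide spread. For the fourth pair, *AAC3* was at background and the groups overlapped for *PET9*. *ROX1* was 1.43-fold lower, and the probe sets of *HAP1* disagreed in sign.

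**Figure D1:**
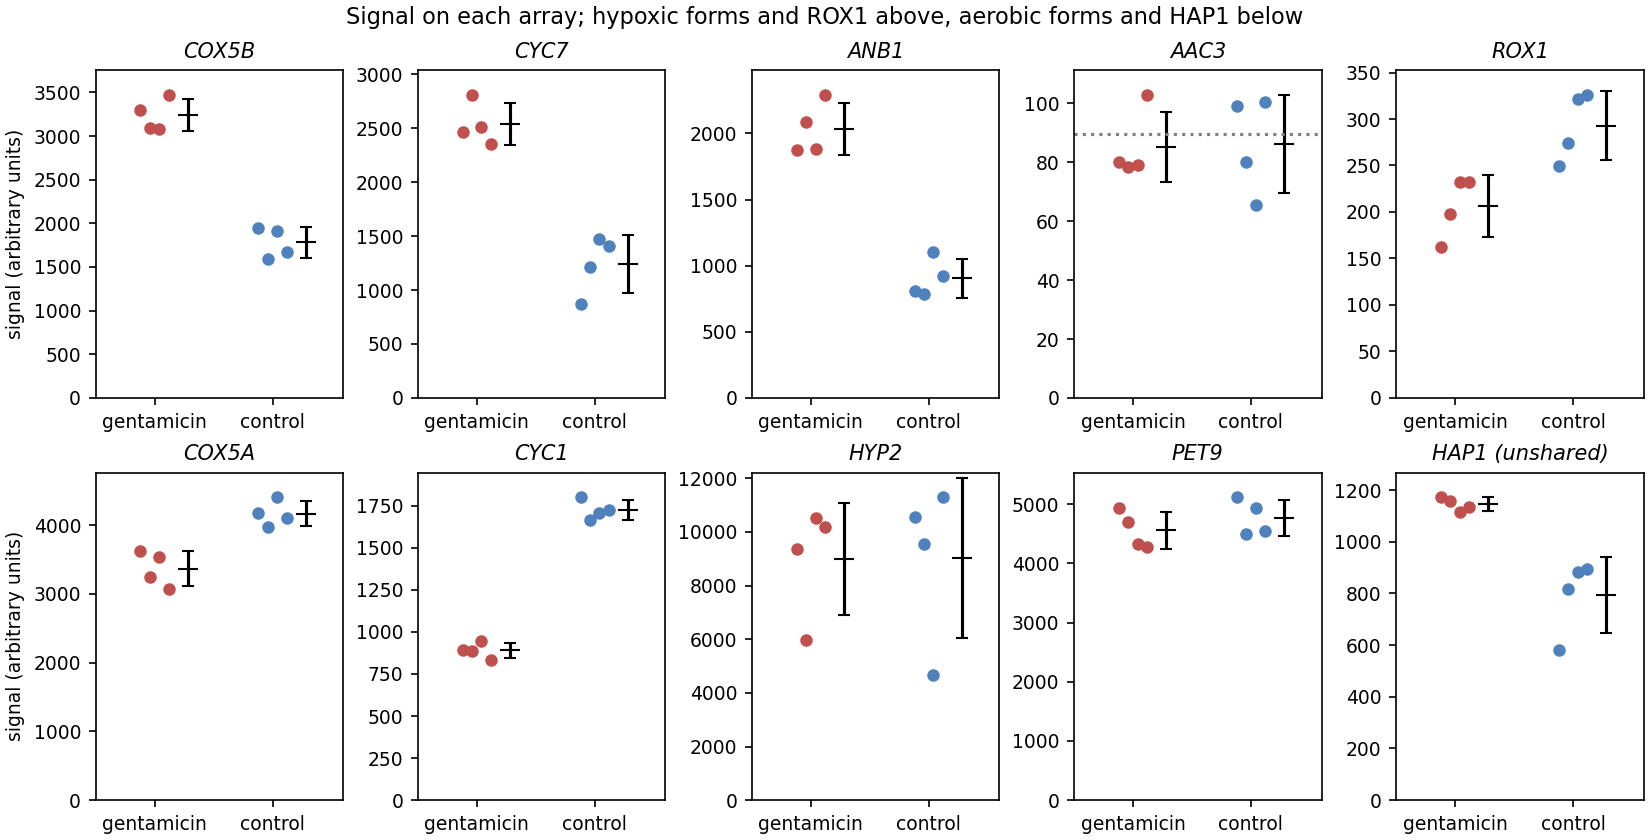
Signal of each gene on each array in arbitrary units on a linear axis from 0, gentamicin arrays at left (red) and control arrays at right (blue), with the mean and SD of the 4 arrays in black. For *HAP1* the probe set of no shared class is drawn, and the dotted line in the *AAC3* panel is the highest signal of controls for absent transcripts, 89.5. *COX5B*, *CYC7* and *ANB1* are higher and *CYC1*, *COX5A* and *ROX1* lower on all 4 gentamicin arrays than on any control array, and the *HAP1* probe set drawn is higher on all 4, unlike the gene's other probe sets.

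*COX5B* and *COX5A* encode alternative forms of subunit 5 of cytochrome c oxidase, the enzyme that passes electrons to oxygen at the end of the respiratory chain. The hypoxic form, *COX5B*, had signals of 3299.8, 3095, 3083 and 3475 on gentamicin arrays 5 to 8, against 1949, 1595, 1915 and 1667 on control arrays 1 to 4. Every gentamicin array lay above every control array, with means of 3238 ± 187 and 1781 ± 177 (SD, n = 4 each). The log2 difference was 0.87 ± 0.08 (SE). *COX5A*, which encodes the form used in air, had signals of 3619, 3244, 3532 and 3074 with gentamicin, against 4169.7, 3977, 4411 and 4109 in controls. Here every gentamicin array lay below every control array, with a log2 difference of -0.31 ± 0.07. After the array medians were aligned over tested genes it was -0.16, and *COX5A* was then no longer called.

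Within each array, the ratio of *COX5B* to *COX5A* does not depend on a common scaling factor. Set to 0 at the control mean, the log2 ratio was 1.10, 1.16, 1.03 and 1.41 on the gentamicin arrays, against 0.13, -0.088, 0.026 and -0.072 on the controls. The ratio was thus 2.26-fold higher with gentamicin (log2 difference 1.18 ± 0.10, SE), a gap several times the spread of either group (SD 0.163 and 0.102).

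*CYC7* and *CYC1* encode iso-2 and iso-1 cytochrome c, the small heme protein that carries electrons to cytochrome c oxidase. *CYC1* is the main form in air, and *CYC7* is known to be raised by low oxygen and by stress. *CYC7* had signals of 2467, 2812, 2516 and 2354 with gentamicin, against 869.9, 1211, 1475 and 1404 in controls. The groups were well apart, although control 1 lay below the other controls, and the means were 2537 ± 195 and 1239.7 ± 271 (SD, n = 4 each). The log2 difference was 1.06 ± 0.15 (SE), and it lay between 0.90 and 1.15 when each array was left out in turn.

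*CYC1* had signals of 895, 887.8, 946 and 833 with gentamicin, against 1803, 1662, 1709 and 1724 in controls. Arrays of a group differed little, with an SD on the log2 scale of 0.0747 and 0.0486, against a median over tested genes of 0.133 and 0.126. Its log2 difference was -0.95 ± 0.06 (SE), and -0.81 with aligned medians. The shift in ratio was larger for the cytochrome c pair than for the other pairs. Relative to the control mean, the log2 ratio of *CYC7* to *CYC1* was 1.97, 2.17, 1.92 and 2.002 on the gentamicin arrays, against -0.55, 0.047, 0.29 and 0.21 on the controls. The ratio was 4.04-fold higher with gentamicin (log2 difference 2.01 ± 0.20, SE).

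*ANB1* and *HYP2* both encode eIF5A, a translation factor that helps ribosomes past difficult stretches such as runs of proline and that carries the modified amino acid hypusine. *HYP2* serves cells in air, and *ANB1* is the classical Rox1-repressed gene. *ANB1* had signals of 1878, 2086, 1881 and 2294 with gentamicin, against 805, 785, 1103 and 925 in controls. Its groups did not overlap, and the log2 difference of 1.18 ± 0.12 (SE) was the largest increase of the 10 genes.

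*HYP2* had signals of 9358, 5957, 10511 and 10186 with gentamicin, against 10571, 9544, 4674 and 11309 in controls. Gentamicin 6 and control 3 stood far below the other 3 arrays of their groups, and the groups overlapped over most of their range. The log2 difference was 0.04 ± 0.29 (SE), and it ran from -0.25 without control 3 to 0.23 without gentamicin 6. With both arrays left out, a choice made after the values were seen, it was -0.06. The same arrays stood apart in the log2 ratio of *ANB1* to *HYP2*, which relative to the control mean was 0.94, 1.74, 0.77 and 1.10 on the gentamicin arrays, against -0.46, -0.35, 1.17 and -0.36 on the controls, so control 3 lay within the gentamicin range. The log2 difference of this ratio was 1.14 ± 0.44 (SE) over all arrays and 1.33 without control 3 and gentamicin 6.

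*AAC3* and *PET9* encode carriers that exchange ADP for ATP across the inner mitochondrial membrane. *PET9*, also called *AAC2*, is the main carrier in respiring cells, and *AAC3* is made without oxygen. *AAC3* had signals of 80.0, 78.5, 79.2 and 103 with gentamicin, against 99.0, 80.1, 65.7 and 100.4 in controls. These lay around the highest signal, 89.5, of the 16 control probe sets for transcripts that yeast lacks, and *AAC3* was the gene of the 10 that failed the filter on low signals. No change can be resolved at that level. *PET9* had signals of 4938, 4702, 4323 and 4277 with gentamicin, against 5126, 4496, 4932 and 4541 in controls. Its groups overlapped, and the log2 difference was -0.07 ± 0.07 (SE), or 0.08 with aligned medians. The ratio of *AAC3* to *PET9* is not resolved either, since *AAC3* was at background.

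**Figure D2:**
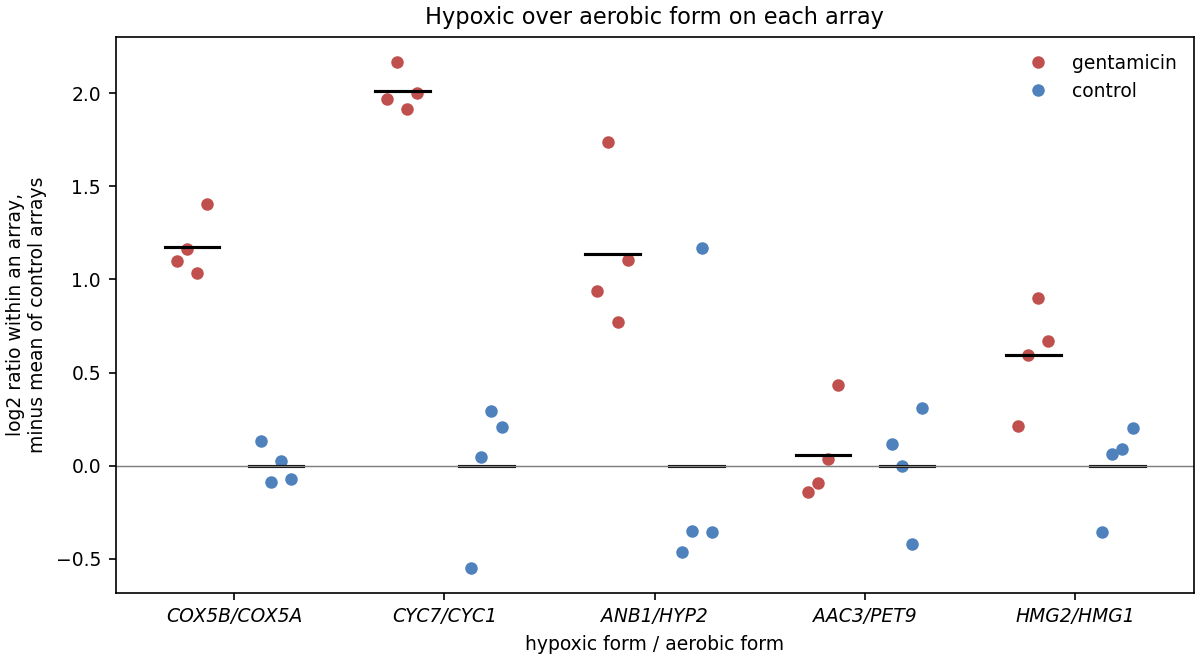
Log2 ratio of the hypoxic over the aerobic form on each array, minus the mean of the control arrays for that pair, for the 4 pairs and for *HMG2*/*HMG1*, with gentamicin arrays at left (red), controls at right (blue) and bars at the group means. The groups are well apart for *COX5B*/*COX5A* and *CYC7*/*CYC1*, and overlap through control 3 for *ANB1*/*HYP2*. For *HMG2*/*HMG1* they nearly touch, with the lowest gentamicin array at 0.211 and the highest control at 0.203. *AAC3*/*PET9* is drawn although *AAC3* was at background and its ratio is not resolved.

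*ROX1*, the repressor, had signals of 162, 198, 233 and 232 with gentamicin, against 249, 275, 321 and 326 in controls. Its groups came close without overlapping, and the log2 difference was -0.51 ± 0.14 (SE). It was -0.37 with aligned medians and -0.29 after quantile normalization, and *ROX1* was not called under either. In both groups its signals lay above the 89.5 of the controls for absent transcripts.

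*HAP1*, the heme-responsive activator, was read by 3 probe sets, 2 of which are by their names of a class shared within a family of similar sequences. The probe set of no shared class had signals of 1174, 1159, 1116 and 1135 with gentamicin, against 581, 818, 885 and 894 in controls. Its groups did not overlap, with a log2 difference of 0.55 ± 0.13 (SE). The brighter shared probe set, which stood for the gene in the fit because of its higher signal, had 2422, 3079, 1822 and 2126 with gentamicin, against 3039.7, 2973, 2463 and 2171 in controls. Its log2 difference was -0.19 ± 0.17 (SE), and that of the other shared probe set was -0.12 ± 0.19, each with overlapping groups. The value for *HAP1* thus depends on the probe set, and which of them reads *HAP1* alone was not tested.

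**Figure D3:**
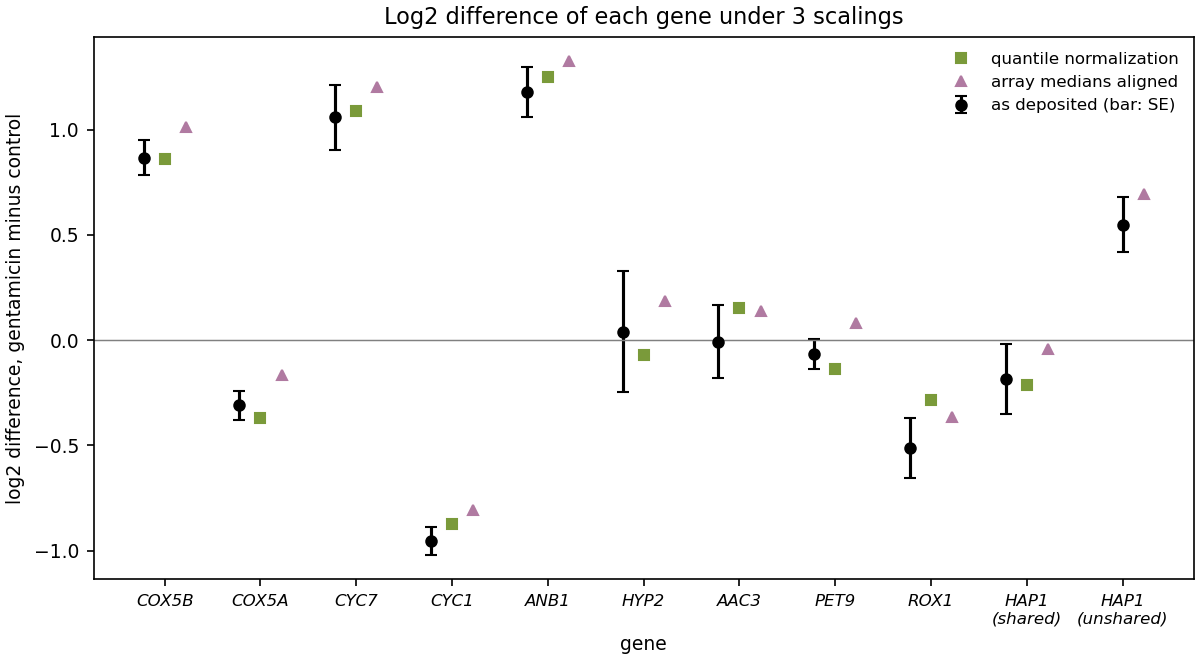
Log2 difference, gentamicin minus control, of the 10 genes with the deposited scaling (black, bar is the SE), after quantile normalization (green squares) and with array medians aligned (purple triangles), with the unshared *HAP1* probe set added at right without a quantile value. *COX5B*, *CYC7*, *ANB1* and *CYC1* keep their direction and lie well away from 0 under all 3, *COX5A* and *ROX1* keep their direction at smaller or larger size, and *HYP2*, *AAC3* and *PET9* change sign around 0.

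A further pair of isoforms outside the 4 was tested. It too was chosen with earlier results of these data known, so its p-value is not independent of that choice. *HMG1* and *HMG2* encode HMG-CoA reductase, a controlling enzyme of sterol synthesis, and *HMG2* is the form that prevails when oxygen is low. *HMG2* had signals of 1482, 1886, 1987 and 1772 with gentamicin, against 1227, 1579.8, 1639 and 1485 in controls, which overlapped. *HMG1* had signals of 1499, 1463, 1245 and 1306 with gentamicin, against 1835, 1772, 1802 and 1509.6 in controls, which did not. *HMG1* fell 1.25-fold (adjusted p = 0.0153), a call lost with aligned medians (adjusted p = 0.159), while *HMG2* was not called (log2 difference 0.27 ± 0.12 SE, adjusted p = 0.0924) but was with aligned medians (0.0137), with array weights (0.0461) and without gentamicin 5 (0.0278). The ratio of *HMG2* to *HMG1* was 1.51-fold higher with gentamicin (log2 difference 0.59 ± 0.19, SE, exact two-sided permutation p = 0.0286, higher on 4 of 4 gentamicin arrays than on any control). The groups nearly touched: relative to the control mean, the lowest gentamicin log2 ratio was 0.211 and the highest control 0.203. The permutation p is the smallest that 4 against 4 arrays allow, and leaving out any 1 control array gave 0.0571.

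The comparison was extended to lists of genes from the wider oxygen and heme response. Of 22 further genes listed here as hypoxic, 15 were tested, of which 3 rose and 4 fell. With the deposited scaling these shares, 20% and 26.7%, lie near the 15.5% and 31.3% of all tested genes. With aligned medians 5 rose and 1 fell, after quantile normalization 5 rose and 3 fell, and without control 4 the number that fell was 2. Over all 4524 tested genes, 1079 rose and 799 fell with aligned medians, and 850 rose and 894 fell after quantile normalization. The median log2 difference of the 15 tested genes of this list was -0.11, against -0.12 for all tested genes. *OLE1*, the fatty acid desaturase, which needs oxygen, rose 1.46-fold (adjusted p = 0.000502), with 12903, 11782, 10452 and 11179 on the gentamicin arrays, against 8696, 7480.0, 7788 and 7677 on the controls. *TIR3*, a cell wall mannoprotein, rose 1.36-fold (adjusted p = 0.00163), and *FRD1*, a soluble fumarate reductase, 1.23-fold (adjusted p = 0.0105). *SUT1*, a regulator of sterol uptake, fell 1.85-fold to 355 ± 14.9, against 658 ± 23.6 in controls (adjusted p = 2.37e-05). *TIR1*, *OSM1*, the other fumarate reductase, and *PAU23*, also called *DAN2*, whose probe set is of a shared class, fell 1.28-fold, 1.24-fold and 1.19-fold (adjusted p = 0.00511, 0.0351 and 0.0267). These last 3 calls were lost with aligned medians (adjusted p = 0.0511, 0.239 and 0.326), that of *OSM1* also after quantile normalization (0.122) and on leaving out any 1 array but gentamicin 6, and that of *PAU23* with array weights (0.0667) and without control 3, control 4 or gentamicin 6. *HEM13*, coproporphyrinogen oxidase and a well-known Rox1 target, was not called (log2 difference -0.28 ± 0.12 SE, adjusted p = 0.0865).

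Of 11 further genes known to be activated by heme or Hap1, 2 rose and 4 fell, or 18.2% and 36.4%. These shares lie near the 15.5% and 31.3% of all tested genes, and the median log2 difference was -0.11. With aligned medians 3 rose and 2 fell, against 1079 and 799 of all 4524 tested genes. *ERG5* and *ERG3*, desaturases of sterol synthesis, fell 2.57-fold and 1.59-fold (adjusted p = 3.12e-05 and 0.000466), and *ERG11*, the sterol demethylase, fell 1.22-fold, a call lost with aligned medians (adjusted p = 0.223). *SOD2*, the mitochondrial superoxide dismutase, rose 1.39-fold (adjusted p = 0.00107). *CYT1*, cytochrome c1, which hands electrons to cytochrome c, rose 1.13-fold (adjusted p = 0.0370), a call lost after quantile normalization (adjusted p = 0.147), without a variance trend (0.0535) and on leaving out any 1 of 5 arrays, controls 1, 2 and 4 and gentamicin 5 and 6. Of the 9 heme synthesis genes, *HEM1*, which encodes the first enzyme, fell 1.36-fold (adjusted p = 0.00257), *HEM15*, which encodes ferrochelatase and the last step, rose 1.17-fold (adjusted p = 0.0211), and 7 were not called. Each direction thus held 11.1% of these 9, against 15.5% higher and 31.3% lower of all tested genes. The *HEM15* call was lost without control 2 (adjusted p = 0.0632) or control 4 (0.0520).

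Among 10 tested regulators of this response, 3 fell, or 30% against 31.3% of all tested genes, and 0 rose, against 15.5% (limma). At an unadjusted p under 0.05, 0 rose and 4 fell, and 0 also rose after quantile normalization and with aligned medians. Without control 1, 5 fell, with *HAP3* and *CYC8* added. Besides *SUT1*, the 3 that fell were *TUP1*, the corepressor that Rox1 recruits, which fell 1.42-fold to 797 ± 68.3, against 1137 ± 136 in controls (adjusted p = 0.00286), and *HAP4*, the limiting subunit of the activator of respiratory genes, which fell 1.35-fold to 706 ± 69.0, against 948 ± 13.2 (adjusted p = 0.00235). *CYC8*, the partner of *TUP1*, had a log2 difference of -0.17 ± 0.13 (SE) and was not called (adjusted p = 0.291). The other Hap4 partners *HAP2*, *HAP3* and *HAP5* had log2 differences of 0.09, -0.33 and 0.04, and *IXR1*, a further repressor of *COX5B*, had -0.07. None of these 4 was called, although *HAP3* was called without control 1 (adjusted p = 0.00286) and with array weights (0.00458). *SPT23*, an activator of *OLE1*, had -0.19 and was not called either (adjusted p = 0.217). *ECM22*, a sterol regulator, had a control 1 signal of 359.7 against 982 to 1104 on the other controls, and its log2 difference was 0.20, or -0.18 without that array.

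**Figure D4:**
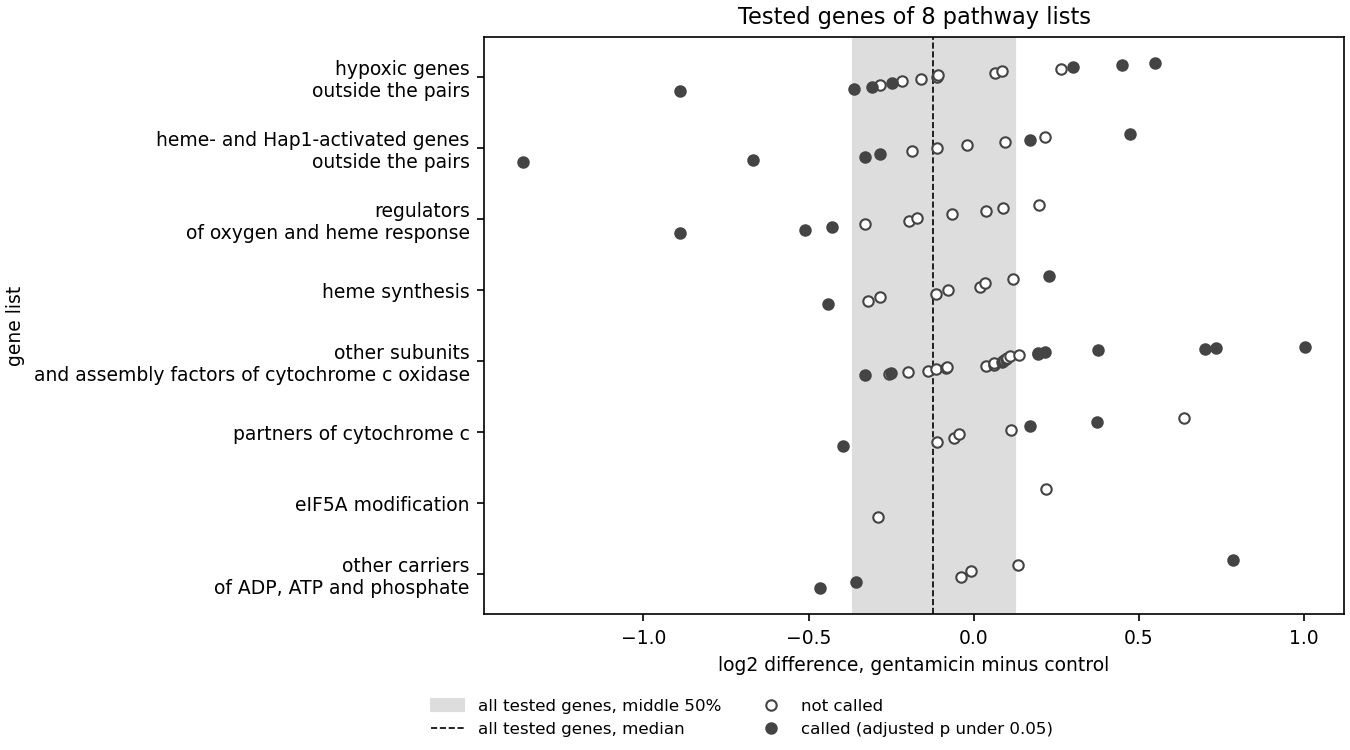
Log2 difference, gentamicin minus control, of each tested gene of 8 pathway lists, filled where called (adjusted p under 0.05) and open where not, over the median (-0.12, dashed) and middle 50% (grey) of all 4524 tested genes. Most lists spread to both sides of the dashed line, and the genes of cytochrome c oxidase lie mostly to its right.

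The partners of each protein moved in several ways. Of 25 other genes for subunits, assembly and synthesis of cytochrome c oxidase, 6 rose and 2 fell, or 24.0% and 8.0% against 15.5% and 31.3% of all tested genes, and the median log2 difference was 0.09. *PET494*, which activates translation of the mitochondrial *COX3* message, rose 2.003-fold to 389 ± 60.0, against 193 ± 16.4 in controls (adjusted p = 0.000193). *COX26*, a small subunit, rose 1.66-fold to 796 ± 50.2, against 479 ± 41.5 (adjusted p = 0.000167), and *SCO2*, a copper protein of assembly related to *SCO1*, rose 1.62-fold (adjusted p = 0.00753). *COX15*, which makes heme A, rose 1.30-fold (adjusted p = 0.00102). *MSS51* and *COX23*, which act in synthesis and assembly of the enzyme, fell 1.26-fold and 1.19-fold, and both calls were lost with aligned medians (adjusted p = 0.167 and 0.258), that of *MSS51* also without gentamicin 8 (0.0577) and that of *COX23* after quantile normalization (0.813). With aligned medians 11 of the 25 rose and 0 fell. That scaling also moved the counts over all 4524 tested genes, from 702 to 1079 higher and from 1414 to 799 lower.

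Of 8 partners of cytochrome c, 2 rose and 1 fell, where 15.5% of all tested genes were higher and 31.3% lower. After quantile normalization 1 rose and 0 fell, and nothing is read from counts over so few genes. Besides *CYT1*, *ERV1*, a sulfhydryl oxidase of the intermembrane space that can pass electrons to cytochrome c, rose 1.30-fold with a probe set of a shared class (adjusted p = 0.00277), and *CYC2*, which acts in attaching heme to cytochrome c, fell 1.32-fold (adjusted p = 0.00352). *ERV1* had 3 probe sets, and the values given are those of the brightest. The *CYC2* call was lost after quantile normalization (adjusted p = 0.130). Neither gene of the enzymes that make hypusine on eIF5A was called, and 0 passed at an unadjusted p under 0.05 (limma). *DYS1*, deoxyhypusine synthase, had 5152, 3999, 5323 and 4574 with gentamicin, against 4444, 4093, 3446 and 4350.5 in controls (log2 difference 0.22 ± 0.11 SE, adjusted p = 0.135), but it was called with aligned medians (0.0310) and without gentamicin 6 (0.0423). *LIA1*, deoxyhypusine hydroxylase, had 976, 945, 1116 and 935 with gentamicin, against 667, 1387, 1542 and 1499 in controls. Control 1 stood apart for *LIA1*: the log2 difference was -0.29 (adjusted p = 0.361), and -0.57 and called without it (adjusted p = 0.00104).

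Of 6 carriers related to *PET9* by function, 1 rose and 2 fell, or 16.7% and 33.3%, near the 15.5% and 31.3% of all tested genes. *PIC2*, a carrier of phosphate and copper, rose 1.72-fold, with 6091, 5726, 5523 and 6027 on the gentamicin arrays, against 3346, 2800.2, 3760.3 and 3742 on the controls (adjusted p = 0.000222). The main phosphate carrier *MIR1* was not called (log2 difference -0.01 ± 0.06 SE, adjusted p = 0.926), nor was *AAC1*, the minor ADP/ATP carrier (0.13 ± 0.06 SE, adjusted p = 0.117), which was called with aligned medians (adjusted p = 0.00799). *SAL1*, an ATP and magnesium carrier, had -0.04 and was not called (adjusted p = 0.710). *ANT1*, of peroxisomes, and *LEU5*, a coenzyme A carrier, fell 1.38-fold and 1.28-fold (adjusted p = 0.0185 and 0.0157), calls that were lost with aligned medians (0.0701 and 0.106) and after quantile normalization (0.129 and 0.322).

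The genes of the cytochrome c and eIF5A pairs lie at 2 places in the genome. In the R64 gene table, *ANB1* and *CYC1* are direct neighbours on chromosome X, transcribed away from each other, and *CYC7* and *HYP2* lie 4 genes apart on chromosome V. Each place therefore holds 1 hypoxic and 1 aerobic form. At the chromosome X place, the region between the divergent genes lies beside a gene that was 2.26-fold higher and one that was 1.94-fold lower. The next genes beyond *CYC1* were, in order, *UTR1*, an NAD kinase, with a log2 difference of 0.05 (adjusted p = 0.667), *ISY1*, a splicing factor, with -0.33 (adjusted p = 0.0425), *OSM1* with -0.31, and *RAD7*, of nucleotide excision repair. After quantile normalization *UTR1* was called, with a log2 difference of 0.28 (limma, adjusted p = 0.0369). The *ISY1* call was lost with aligned medians (adjusted p = 0.235), after quantile normalization (0.474) and on leaving out any 1 of 7 arrays, all but gentamicin 6. *RAD7* had 1 control signal of 43.9, on array 3, against 1171 to 1193 on the others, and a log2 difference of 0.07 without it. Between *CYC7* and *HYP2* lie *UTR4* with 0.06 (adjusted p = 0.697), *RAD23* with -0.24 (adjusted p = 0.0328, 0.354 with aligned medians), *ANP1*, a Golgi mannosyltransferase subunit, which fell 1.51-fold (adjusted p = 0.000507), and *UTR5*, below the filter. The *RAD23* call was also lost on leaving out any 1 of 5 arrays, controls 2, 3 and 4 and gentamicin 6 and 8. These neighbours were chosen for their position after the values of the pairs were seen.

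**Figure D5:**
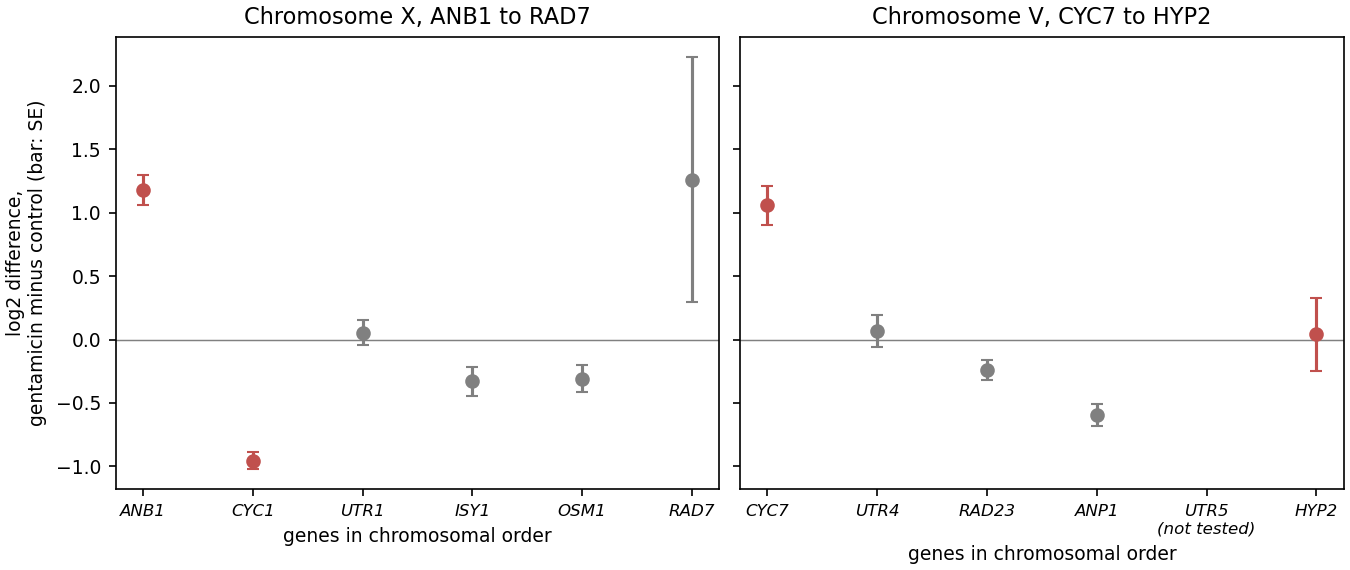
Log2 difference, gentamicin minus control, with its SE, of genes in chromosomal order from *ANB1* to *RAD7* (left) and from *CYC7* to *HYP2* (right), with genes of the pairs in red and others in grey. *CYC7* stands above and *CYC1* below the other genes of its panel, and *ANB1* stands above all but *RAD7*, whose point at 1.26 and wide bar come from 1 low control array.

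The tested genes whose pattern over the 8 arrays was nearest to each form, by the root mean square (RMS) difference of log2 values centred on their own mean, are named here as a description. For *COX5B* it was *GPG1*, with an RMS difference of 0.0809, and for *COX5A* it was *IVY1* with 0.0367. *CYC7* was nearest to *GDB1*, the glycogen debranching enzyme (0.119), which was also lowest on control 1. *CYC1* was nearest to *YER137C* (0.0575) and *ANB1* to *YMR085W* (0.117). *PET9* was nearest to *SSZ1*, a ribosome-associated chaperone (0.0275), and *AAC3*, at background, to *DFG10* (0.0993). *HYP2* was nearest to *IRC22* (0.135), which was likewise lowest on gentamicin 6 (2472, against 4141 to 5016 on the other gentamicin arrays) and on control 3 (2191, against 4939 to 5175 on the other controls).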

How the data were processed

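RNA of 4 gentamicin and 4 control samples was hybridised in 1 colour. As deposited, the values are intensity signals made by the authors, linear and 1 for each probe set on each array, computed with MAS5 per the submitters' processing notes, where neither version nor settings appear. Trimmed of 2% at either end, the mean signal was about 1001 on every array. Depth has no counterpart on arrays, and the number of arrays limits the precision. Of 9335 probe sets, 6504 had 1 gene in the platform annotation, and all their gene identifiers matched the RefSeq R64 gene table, whose symbols are used. Where a gene had several, the one brightest on average in log2 stood for it. Log2 was taken with nothing added, and of the 5656 genes the dimmest 20% were not tested. The rest were fitted on group with limma 3.58.1 in R 4.3.3 (lmFit, eBayes with a variance trend, Benjamini-Hochberg adjustment over 4524 genes), with calls at an adjusted p under 0.05. SEs come from this fit, those of ratios from the 4 arrays of each group. The fit was tested on simulated data.

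The 10 genes, the lists and their tests were chosen with earlier results of these data known. Named genes were the 10, *HMG1* and *HMG2*, up to 4 called genes in each direction per list by adjusted p, tested regulators, carriers and eIF5A enzymes, and the nearest gene in pattern. *HEM13* and the chromosomal neighbours were named after their values were seen, outside this rule. Of 22 genes listed as hypoxic, 21 had a probe set with 1 gene. No promoter or protein sequence was used here, so the planned motif counts and protein comparisons were not run, and coordinates are left out because the genome build is not given in the sources used here.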

Additional observations from a re-analysis of the deposited data

Results flagged for a closer look

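In 15 of 144 groups of 4 arrays checked on the log2 scale, 1 array lay far from the other 3, with a gap over the group's range above Dixon's critical value, which chance gives in about 1 group in 20. Among the pairs, the ratio of *ANB1* to *HYP2* on control 3 stood apart (gap over range 0.931), where *HYP2* was low. *AAC3* was 103 on gentamicin 8 and 78.5 to 80.0 on the other gentamicin arrays (0.931), all near the level of absent transcripts.

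Control 1 stood below the other controls for *ECM22* (0.896, a signal of 359.7 against 982 to 1104), *LIA1* (0.874, 667 against 1387 to 1542), *HAP3* (0.841, 443 against 611 to 649.5) and *ANT1* (0.886, 505 against 585 to 597). Control 3 was low for *RAD7* (0.994) and *IRC22* (0.946), and control 4 was high for *MSS51* (0.877, 2361 against 1760.4 to 1825). Single gentamicin arrays were low for *ERV1* (0.898, array 6), *SUT1* (0.867, array 6), *AAC1* (0.855, array 8) and *GDB1* (0.948, array 7), and high on array 7 for *YER137C* (0.968) and *UTR4* (0.868).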

How the results depend on the processing

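No paired analysis was possible because the groups share no replicate numbers. Beyond the choice of *HAP1* probe set, the log2 differences of the 10 genes moved by more than the spread between arrays in 6 of 120 comparisons with alternatives, all of them of scaling, and no called gene of the 10 changed direction. Leaving out 1 of 4 arrays cannot move a difference by more than this spread. A median over probe sets changes nothing for the 9 genes with 1 probe set. The count of 6 therefore says nothing about single arrays, and *HYP2*, from -0.25 to 0.23 on leaving them out, is not in it. In these 6 comparisons the log2 differences were, with aligned medians, -0.16 for *COX5A*, 1.01 for *COX5B*, -0.81 for *CYC1* and 0.08 for *PET9*. After quantile normalization they were -0.87 for *CYC1* and -0.29 for *ROX1*. *COX5B*, *CYC7*, *CYC1* and *ANB1* stayed called under all 16 alternatives. The shifts in ratio of the 4 pairs moved by less than the spread between arrays under all alternatives. The same limit applies to leaving out arrays, and aligned medians cancel within a ratio, so this holds largely by construction. On leaving out single arrays the log2 shift ran from 1.10 to 1.22 for *COX5B*/*COX5A* and from 1.83 to 2.11 for *CYC7*/*CYC1*. It ran from 0.94 to 1.53 for *ANB1*/*HYP2* and from -0.08 to 0.16 for *AAC3*/*PET9*. The counts of called genes were 702 higher and 1414 lower, 1079 and 799 with aligned medians, and 850 and 894 after quantile normalization. The ratio of *HMG2* to *HMG1* ran from 0.47 to 0.72 (log2) on leaving out single arrays, with an exact permutation p = 0.0571 without any 1 control.

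Of 874 such comparisons for 55 other named genes, 787 kept direction and call, 52 lost and 12 gained the call, and 23 changed sign, all for genes not called. With aligned medians the signs turned for *IRC22* (0.084), *IXR1* (0.080), *MIR1* (0.14), *SAL1* (0.11) and *SSZ1* (0.040), after quantile normalization for *SAL1* (0.059), and with array weights for *ECM22* (-0.0079). On leaving out single arrays they ran from -0.093 to 0.066 for *DFG10*, -0.18 to 0.36 for *ECM22*, -0.0021 to 0.095 for *HAP5*, -0.36 to 0.16 for *IRC22*, -0.15 to 0.0043 for *IXR1*, -0.048 to 0.015 for *MIR1*, -0.088 to 0.0022 for *SAL1*, -0.021 to 0.10 for *UTR1* and -0.040 to 0.14 for *UTR4*. The causes were not tested. The choices to leave out control 3 with gentamicin 6 and to read the unshared *HAP1* probe set (0.55) were made after seeing the data. The promoter and protein comparisons were not run.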

Other observations

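The low arrays of *HYP2* were shared with a small set of other genes. Of 4524 tested genes, 459 were lowest on both control 3 and gentamicin 6 within their groups, and 37 lay more than 0.5 log2 units below the mean of the other 3 arrays on both. *HYP2* lay 1.16 below on control 3 and 0.75 below on gentamicin 6. The 37 included *MCM3*, a near neighbour of *HYP2* on chromosome V (0.96 and 0.61), *IRC22* (1.21 and 0.89) and *OXA1*, which inserts proteins into the inner mitochondrial membrane (0.63 and 1.15). These genes were picked for low values on these arrays, so their values describe the arrays and carry no test. Of the tested genes between *CYC7* and *HYP2*, *RAD23* and *ANP1* were lowest in their group on neither array. *UTR4* was lowest on gentamicin 6 (1577, against 1589 to 1951 on the other gentamicin arrays) but not on control 3.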
